A study of Mus musculus with 10 samples.

Results

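The 9 genes described here bind, take up, make or break down retinoids, the vitamin A compounds, and were followed in the skin of mice that overexpress hepcidin, the hormone that controls how much iron leaves cells. They were chosen by symbol, as Crabp1, Crabp2, Rbp4, Stra6, Cyp26b1, Dhrs9, Aldh1a1, Aldh1a2 and Aldh1a3, and all 9 were found among the 55487 genes of the deposited tables. RNA sequencing covered skin of 5 mice of the genotype Hamp1-KI ker, called KI here, and of 5 wild type mice (WT). The labels give no strain, age, sex or body site, do not spell out "ker" or name the promoter behind the hepcidin gene, and state no treatment for either group. Titles carry the prefix EAS37 (2 KI, 3 WT) or EAS42 (3 KI, 2 WT), whose meaning is not given.

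Retinol travels in blood on the carrier Rbp4, enters some cells through the membrane receptor Stra6, and is either stored as retinyl ester or oxidised. Retinol dehydrogenases such as Dhrs9 turn it into retinaldehyde, and the Aldh1a enzymes turn retinaldehyde into retinoic acid, a step that cannot be reversed. Retinoic acid is held in the cytoplasm by Crabp1 and Crabp2, acts through the nuclear receptors of the Rar and Rxr families, and is inactivated by Cyp26 enzymes. In skin, retinoids are known to govern keratinocyte growth and maturation and the hair cycle.

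Pairs of Rar and Rxr proteins bind repeats of a short hexamer in DNA, and the stretches before gene starts are shown because they let the position of such letters be seen. Each line gives the 100 bases before a start, 5′ to 3′ on the strand of the gene, from RefSeq on GRCm38.p6, with capitals on the hexamer AGGTCA and on its variants AGTTCA and GGGTCA and GGTTCA, on either strand (TGACCT is thus AGGTCA read on the opposite strand). The receptor gene Rarb and the breakdown enzyme gene Cyp26a1 come first, since both hold the repeat with 5 bases between the hexamers that is the textbook retinoic acid response element. Dhrs9, Rbp4 and Aldh1a1 follow as the 3 genes with such letters near a start, the Aldh1a1 start being a second one inside the annotated gene, and Aldh1a7 closes as a near copy of Aldh1a1.
Rarb, chr14:16575477-16575576, minus strand: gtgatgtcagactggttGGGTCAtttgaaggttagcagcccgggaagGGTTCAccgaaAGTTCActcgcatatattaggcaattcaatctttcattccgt
Cyp26a1, chr19:37697708-37697807, plus strand: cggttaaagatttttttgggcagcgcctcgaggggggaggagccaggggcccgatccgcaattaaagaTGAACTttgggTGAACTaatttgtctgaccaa
Dhrs9, chr2:69380362-69380461, plus strand: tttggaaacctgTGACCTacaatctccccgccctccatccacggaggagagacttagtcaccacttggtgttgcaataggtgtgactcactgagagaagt
Rbp4, chr19:38125322-38125421, minus strand: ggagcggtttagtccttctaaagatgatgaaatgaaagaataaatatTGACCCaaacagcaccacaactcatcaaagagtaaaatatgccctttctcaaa
Aldh1a1, chr19:20601868-20601967, plus strand: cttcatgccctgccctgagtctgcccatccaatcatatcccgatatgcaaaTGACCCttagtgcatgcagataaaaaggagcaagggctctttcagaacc
Aldh1a7, chr19:20727557-20727656, minus strand: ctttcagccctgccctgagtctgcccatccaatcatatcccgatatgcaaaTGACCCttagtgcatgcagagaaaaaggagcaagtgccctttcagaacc

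Promoters were at hand for 7 of the 9 genes (12 starts), all but Crabp2 and Aldh1a3. Within 250 bases before the start, 3 of these 12 held at least 1 of the 4 hexamers on either strand, as did 38.64% of 32851 mouse promoters of that length. None of the 12 held 2 hexamers as a direct repeat with 1, 2 or 5 bases between them, a pattern found in 0.43% of all promoters. These letters say nothing of elements farther away. Aldh1a7, which lies next to Aldh1a1 on chromosome 19, matched the Aldh1a1 stretch at 94 of 100 positions.

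KI libraries held 18963438 to 23106857 and WT libraries 19487802 to 26430328 expected counts, the authors' estimates of reads per gene, and mitochondrial genes took 3.58% to 5.31% of them. Hamp, which encodes hepcidin, stood at 411 to 872 TPM in KI and 10.3 to 18.4 TPM in WT libraries (TPM is the authors' abundance value, scaled for gene length and depth). The fitted KI over WT ratio of Hamp was 44.4, and the libraries followed their labels. Across all 17321 genes tested, 30.9% passed the edgeR quasi-likelihood test at an adjusted p under 0.05 (15.6% higher and 15.3% lower in KI), which makes a call common here. Markers of skin were present, with suprabasal keratinocyte genes at a mean log2 CPM of 8.94 to 9.60 in KI and 7.68 to 9.08 in WT libraries. Nothing in the labels says more of how the mice were bred or sampled. The p-values set the difference of KI and WT against the spread within each genotype among these 10 animals. In the main fit that spread includes any difference between prefixes.

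Of the 9 genes, 3 rose in KI skin (Crabp2, Aldh1a3 and Stra6), 2 fell (Rbp4 and Aldh1a1) and 4 did not pass (Crabp1, Cyp26b1, Dhrs9 and Aldh1a2). Beside these 5 called genes, 30.9% of all genes tested were called. All 9 passed the filter on low counts. Their median log2 fold change was 1.004, beside -0.00927 over all genes tested. The changes ran from a 5.13-fold rise of Aldh1a3 to a fall of Rbp4 to 0.369 of its WT level. TPM ranges of KI and WT did not overlap for Crabp2, Aldh1a3 and Aldh1a1, 3 of the 9, beside 17.7% of all genes tested.

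**Figure D1:**
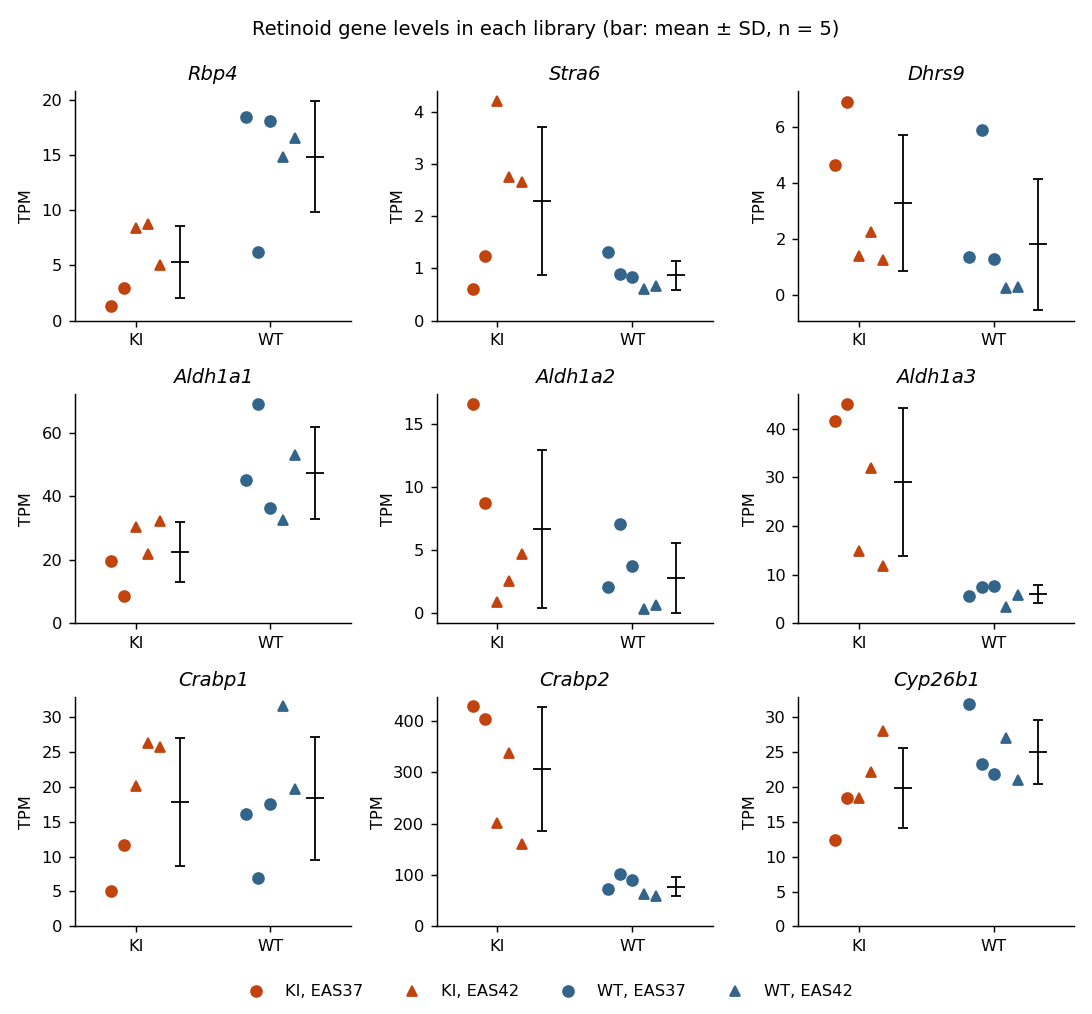
TPM of each of the 9 retinoid genes in every library, with KI left of WT, circles for EAS37 and triangles for EAS42, and the mean ± SD of 5 libraries beside each group. The KI points of Crabp2 and Aldh1a3 lie above every WT point, those of Aldh1a1 lie below, and Stra6 is raised in the 3 KI triangles.

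Among the genes for carriage and entry of retinol, skin RNA of the carrier gene Rbp4 was lower in KI and that of the receptor gene Stra6 higher. Neither call held under all 25 alternatives, and Rbp4 protein in blood was not measured. Rbp4 (ENSMUSG00000024990, chr19:38116629-38125281, minus strand, GRCm38 as are all gene positions here) stood at 1.34, 2.99, 8.37, 8.73 and 5.01 TPM in KI 1 to KI 5, against 18.5, 6.21, 18.1, 14.8 and 16.6 TPM in WT 1 to WT 5. WT 2 lay inside the KI range and the other WT libraries above it. KI over WT, Rbp4 gave -1.44 ± 0.44 on the log2 scale (SE, edgeR, adjusted p = 0.0321), with -2.55 in EAS37 and -1.09 in EAS42. These values come from a model of genotype, prefix and their interaction, where the EAS42 value did not pass (edgeR adjusted p = 0.126). A fit of EAS42 alone gave -1.1 and passed (edgeR adjusted p = 0.0357). Its counts were low, from 18 to 264 per library. Rbp4 is also made by fat cells, and in the same libraries 7 of 12 adipocyte markers and 3 of 10 dermal fibroblast markers were lower in KI and none was higher. The adipocyte level (mean log2 CPM of its markers) spanned 4.55 to 5.46 in KI and 5.44 to 6.27 in WT libraries, and the fibroblast level 7.61 to 8.62 in KI and 8.25 to 9.02 in WT libraries. Their part in the fall of Rbp4 was not tested, and in bulk RNA fewer cells of a type and less RNA per cell cannot be told apart. When the model also held the adipocyte level, Rbp4 stood at -0.33 (edgeR adjusted p = 0.763, in a range of 0.00272 to 0.763 over 25 alternatives), and the call was also lost without KI 2 (adjusted p = 0.0712), KI 5, WT 1, WT 3, WT 4 or WT 5. The adipocyte level also differs between genotypes, and with it 326 of all 17321 genes passed, against 5351 without it.

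Stra6 (ENSMUSG00000032327, chr9:58063788-58153996, plus strand), the receptor that passes retinol from Rbp4 into cells, had the lowest mean of the 9 in both groups. It stood at 0.61, 1.24, 4.22, 2.76 and 2.66 TPM in KI 1 to KI 5, against 1.32, 0.90, 0.84, 0.61 and 0.67 TPM in WT 1 to WT 5. The 3 KI libraries titled EAS42 exceeded every WT library, and the 2 titled EAS37 lay within the WT range. On the log2 scale the KI effect was 1.54 ± 0.42 over all libraries (SE; edgeR adjusted p = 0.0202), 2.43 ± 0.36 in EAS42 and 0.09 ± 0.34 in EAS37. The difference of the KI effect between prefixes, EAS42 minus EAS37, was 2.34 ± 0.49 (SE; edgeR adjusted p = 0.0603), and it passed with no count filter (adjusted p = 0.021). Of all genes tested, 0.866% passed that test of the difference. The rise of Stra6 did not pass, among others, with EAS37 alone (0.11, adjusted p = 0.839), with the prefix as a block (1.27, adjusted p = 0.0529) or on TPM with limma (0.71 and 1.09), where adjusted p ran from 0.00165 to 0.839 over 25 alternatives. Stra6 overlaps Ccdc33 on the other strand and Gm16131 on its own, and Aldh1a1 and Aldh1a2 overlap noncoding or pseudogene transcripts on the other strand. How the counting treated strand is not given in the sources used here, so reads at such overlaps are uncertain.

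**Figure D2:**
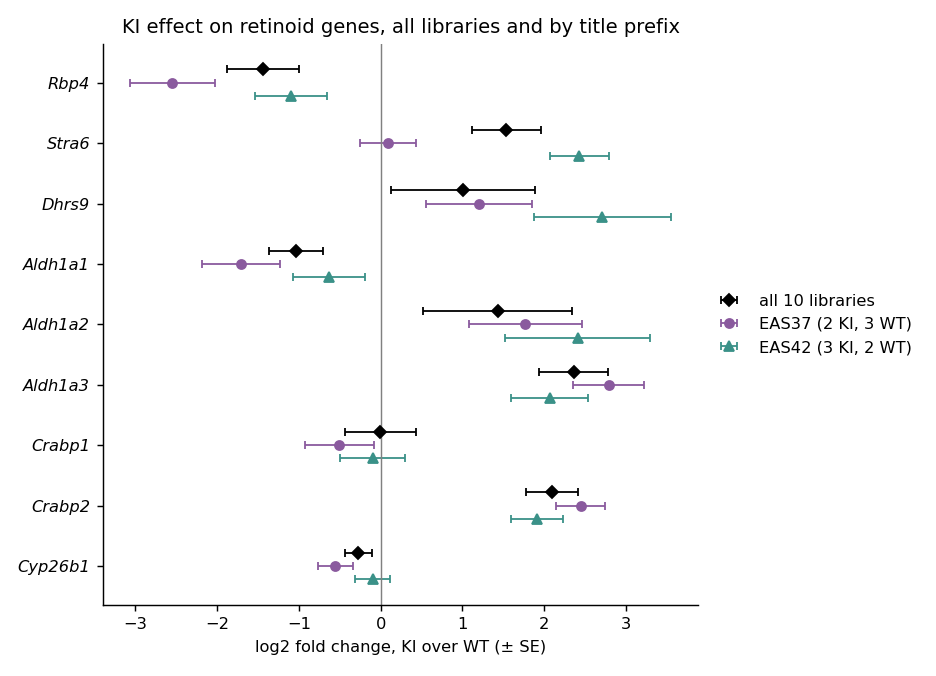
Log2 fold change, KI over WT, of the 9 genes with its SE, over all 10 libraries (diamonds) and within EAS37 (circles) and EAS42 (triangles) from a model with an interaction. Stra6 stands at 0.09 in EAS37 and 2.43 in EAS42, while Crabp2 and Aldh1a3 stand between 1.92 and 2.79 under both prefixes.

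Retinaldehyde dehydrogenase genes changed in opposite directions. Aldh1a3 (ENSMUSG00000015134, chr7:66390890-66427517, minus strand) stood at 41.5, 45.0, 14.9, 31.9 and 11.8 TPM in KI 1 to KI 5, against 5.67, 7.54, 7.71, 3.31 and 5.83 TPM in WT 1 to WT 5. All KI libraries exceeded all WT libraries, by 2.36 ± 0.42 on the log2 scale (SE, edgeR, adjusted p = 0.00392). Aldh1a1 (ENSMUSG00000053279, chr19:20492715-20643465, plus strand) stood at 19.7, 8.61, 30.4, 21.9 and 32.3 TPM in KI 1 to KI 5, against 45.3, 69.2, 36.5, 32.7 and 52.9 TPM in WT 1 to WT 5. The groups did not overlap, though KI 5 and WT 4 lay next to each other, with -1.04 ± 0.33 on the log2 scale (SE, edgeR, adjusted p = 0.0386).

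Aldh1a2 (ENSMUSG00000013584, chr9:71215789-71296243, plus strand), the retinaldehyde dehydrogenase that mouse embryos need for most of their retinoic acid, stood at 16.6, 8.73, 0.92, 2.56 and 4.69 TPM in KI 1 to KI 5. WT 1 to WT 5 held 2.05, 7.09, 3.79, 0.36 and 0.65 TPM of it. The groups overlapped, and a KI effect of 1.43 ± 0.91 on the log2 scale (SE, edgeR, adjusted p = 0.253) did not pass. Within each prefix every KI library exceeded every WT library of that prefix. The log2 fold changes were 1.77 ± 0.69 in EAS37 and 2.41 ± 0.89 in EAS42, both above the pooled value. Neither passed in the model with an interaction (edgeR adjusted p = 0.0808 in EAS37 and 0.109 in EAS42). Fits of EAS37 alone and EAS42 alone did not pass either (edgeR adjusted p = 0.0999 and 0.0807). With the prefix as a block the value was 2.03 and passed (edgeR adjusted p = 0.0134, in a range of 0.00317 to 0.961 over 25 alternatives). Single libraries moved it, to 0.67 without KI 1 and 2.15 without WT 2, and neither value passed (edgeR adjusted p = 0.603 and 0.123).

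Aldh1a1 and Aldh1a3 had different shares of the summed TPM of the 3 dehydrogenases in KI and WT skin, while the sums overlapped. Summed TPM of Aldh1a1, Aldh1a2 and Aldh1a3 ran from 46.2 to 77.7 in KI and from 36.4 to 83.8 in WT libraries, with medians of 56.3 and 53.0. Aldh1a3 supplied 24.3% to 72.2% of that sum in KI libraries and 8.99% to 16.1% in WT libraries. Aldh1a1 supplied 13.8% to 66.1% in KI and 76.0% to 89.9% in WT libraries. The shares of Aldh1a2 overlapped, at 1.99% to 21.3% in KI and 0.989% to 8.46% in WT libraries. In KI 1, KI 2 and KI 4 Aldh1a3 was the most abundant of the 3, while Aldh1a1 led in KI 3, KI 5 and all 5 WT libraries. These shares describe genes chosen with earlier results known and were not tested.

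**Figure D3:**
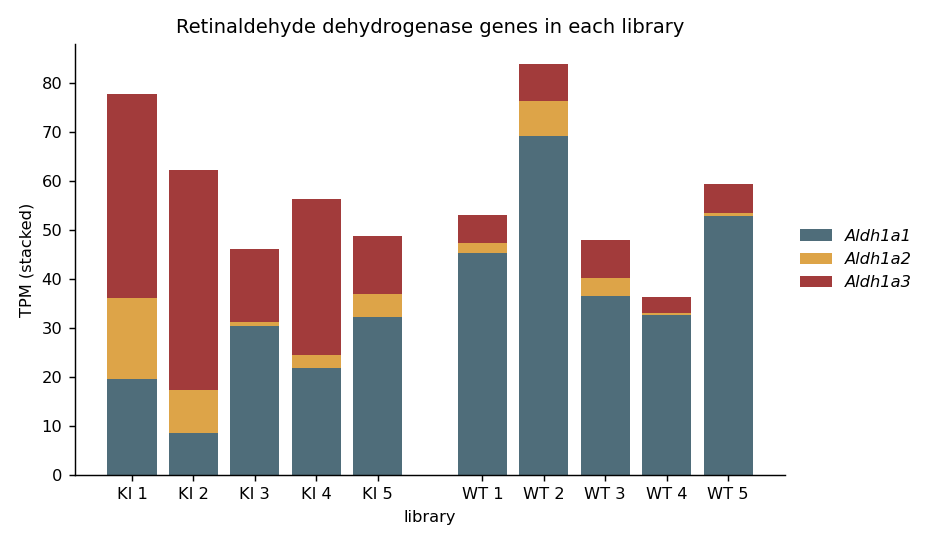
Stacked TPM of Aldh1a1, Aldh1a2 and Aldh1a3 in each KI library (left) and each WT library (right). Aldh1a3 fills 24.3% to 72.2% of the KI bars and 8.99% to 16.1% of the WT bars, while the bar heights of both groups overlap.

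Aldh1a1 shares sequence with its near copy Aldh1a7. Of the 2004 windows of 50 bases in its main transcript, 7.53% occur unchanged in the Aldh1a7 transcript. No such window was shared among Aldh1a1, Aldh1a2 and Aldh1a3 or between Crabp1 and Crabp2. The split of reads from the stretches shared by Aldh1a1 and Aldh1a7 is therefore uncertain. Expected counts of Aldh1a1 were fractional in KI 2, WT 3 and WT 4 (247.36, 1184.33 and 1172.41) and whole in the other libraries. Aldh1a7 averaged 6.70 ± 4.55 TPM in KI and 10.3 ± 1.74 TPM in WT libraries (SD, n = 5 each; log2 fold change -0.58, edgeR adjusted p = 0.252). The skeletal muscle level, over 15 markers, spanned 6.92 to 10.3 in KI and 10.2 to 10.9 in WT libraries. Of these 15 markers 1 was lower in KI and 14 did not pass, and their part in the fall of Aldh1a1 was not tested. When the model held that level, Aldh1a1 stood at -0.13 (edgeR adjusted p = 0.824, in a range of 0.00565 to 0.824 over 25 alternatives). The muscle level also differs between genotypes, and with it 416 of all 17321 genes passed, against 5351 without it. The Aldh1a1 call was also lost with EAS37 alone (-1.69), with EAS42 alone (-0.64), and without KI 1, KI 4, WT 1, WT 2 or WT 5. The EAS37 outcome depended on the fit, as EAS37 alone gave an edgeR adjusted p of 0.0894 and the model with an interaction 0.0279. The rise of Aldh1a3 did not pass with the muscle level (1.31, adjusted p = 0.176), the adipocyte level (2.16, 0.175) or EAS42 alone (2.05, 0.0674), within a range of 2.46e-08 to 0.176. In EAS42 the model with an interaction gave 2.07 for Aldh1a3 (edgeR adjusted p = 0.0273), so that outcome depended on the fit too.

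Dhrs9 (ENSMUSG00000027068, chr2:69380445-69404533, plus strand), which in human cells oxidises retinol to retinaldehyde, was low and variable. It stood at 4.65, 6.92, 1.39, 2.26 and 1.23 TPM in KI 1 to KI 5, against 1.34, 5.90, 1.26, 0.23 and 0.26 TPM in WT 1 to WT 5. KI 1, KI 2 and WT 2 stood apart from the other 7 libraries, and the groups overlapped (log2 fold change 1.004 ± 0.88, SE; edgeR adjusted p = 0.409). In the model with an interaction the value was 1.21 in EAS37 and 2.71 in EAS42, and neither passed (edgeR adjusted p = 0.184 and 0.0679). All 3 KI libraries titled EAS42 exceeded both WT libraries of that prefix. The call was made with the prefix as a block (1.82, adjusted p = 0.0268), when the hair level was a covariate (2.19, adjusted p = 0.00185) and with EAS42 alone (2.70, adjusted p = 0.00671). The sign turned with the muscle level (-0.36) or the adipocyte level (-0.30), and adjusted p ran from 0.00185 to 0.935 over 25 alternatives. Without KI 2 the log2 fold change was 0.55 (edgeR adjusted p = 0.693), and without WT 2 it was 2.24 (edgeR adjusted p = 0.0535).

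Within each genotype, Dhrs9 and Aldh1a2 were higher in the libraries titled EAS37, where hair genes were high as well, with no overlap for either gene. The hair level, a mean log2 CPM over 14 matrix and shaft markers, was 4.28 and 6.15 in KI 1 and KI 2 and 3.35, 8.196 and 5.08 in WT 1 to WT 3, all titled EAS37. It was between -0.84 and 0.53 in the KI and between -0.49 and 0.75 in the WT libraries titled EAS42. None of the 14 hair genes passed between KI and WT. After the mean of each genotype was subtracted, Pearson's r with the hair level over the 10 libraries was 0.94 for Dhrs9 and 0.91 for Aldh1a2, and 0.75 and 0.59 once the prefix mean was removed as well. With the level of 10 activated keratinocyte markers, 8 of them higher in KI, r was 0.96 for Dhrs9 and 0.87 for Aldh1a2, and 0.88 and 0.47 with the prefix mean removed. Dhrs9 thus lay closer to the activated keratinocyte level than to the hair level by both measures, and Aldh1a2 closer to the hair level. These are descriptions over libraries that share prefix and normalization. The part of hair or activated keratinocyte genes in either gene's level was not tested.

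**Figure D4:**
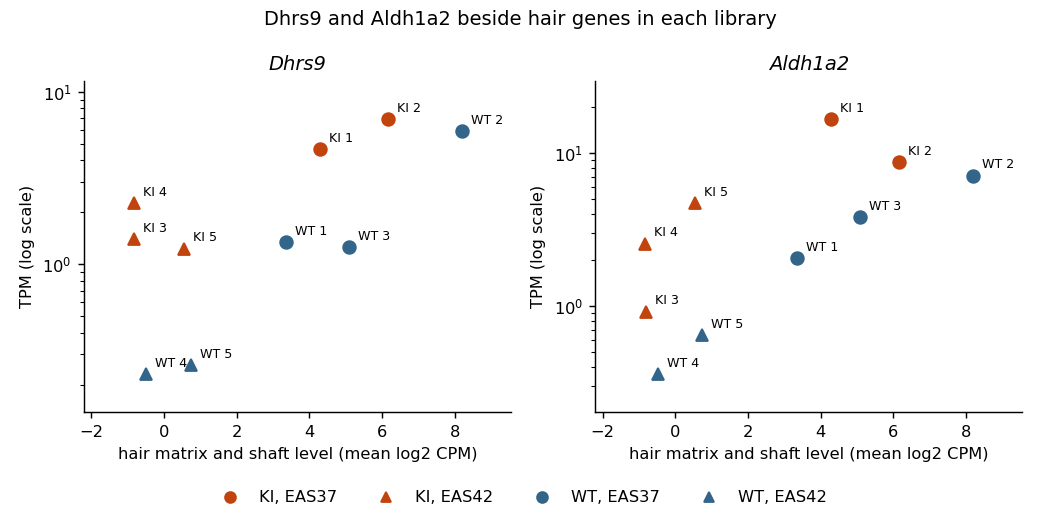
TPM (log scale) of Dhrs9 and of Aldh1a2 against the hair matrix and shaft level (mean log2 CPM) in each library, KI red and WT blue, circles EAS37 and triangles EAS42. Libraries titled EAS42 lie at hair levels between -0.84 and 0.75 and those titled EAS37 between 3.35 and 8.196, and under each prefix the KI points of Aldh1a2 lie above the WT points.

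Of the retinoic acid binding proteins, Crabp2 rose and Crabp1 did not pass, and the difference between these effects was not tested. Crabp2 (ENSMUSG00000004885, chr3:87948666-87953376, plus strand), which hands retinoic acid to the nuclear receptors and marks retinoid response in human skin, was the most abundant of the 9 genes by mean in both groups. It stood at 428, 403, 200.2, 338 and 159.8 TPM in KI 1 to KI 5, against 73.1, 102, 90.0, 63.8 and 58.5 TPM in WT 1 to WT 5. Every KI library exceeded every WT library, a 4.29-fold rise (2.10 ± 0.32 on the log2 scale, SE, edgeR, adjusted p = 0.00197). It was 2.45 in EAS37 and 1.92 in EAS42. In the same libraries 8 of 10 activated keratinocyte markers were higher, at a level of 6.77 to 8.64 in KI and 2.75 to 4.99 in WT libraries. The part of these markers was not tested. Crabp2 lost its call with the muscle level (1.40, adjusted p = 0.0901) or the adipocyte level (1.85, adjusted p = 0.126) as a covariate, within a range of 2.15e-10 to 0.126 over 25 alternatives.

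Crabp1 (ENSMUSG00000032291, chr9:54764748-54773110, plus strand), the paralog linked to storage and breakdown of retinoic acid, did not pass. It stood at 5.13, 11.7, 20.1, 26.2 and 25.7 TPM in KI 1 to KI 5, against 16.1, 6.97, 17.5, 31.5 and 19.7 TPM in WT 1 to WT 5. Both groups covered almost the same range (log2 fold change -0.0023 ± 0.44, SE; edgeR adjusted p = 0.998), and a change within that error was not detectable with these libraries. Libraries titled EAS42 were the higher ones within KI and within WT. The log2 fold change of Crabp1 was -0.50 in EAS37, -0.10 in EAS42 and -0.29 with the prefix as a block (edgeR adjusted p = 0.445, in a range of 0.412 to 1.0 over 25 alternatives).

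Cyp26b1 (ENSMUSG00000063415, chr6:84571414-84593908, minus strand), a cytochrome that hydroxylates retinoic acid and so ends its action, was well measured, with 891 to 2217 counts per library. It stood at 12.5, 18.4, 18.4, 22.2 and 28.1 TPM in KI 1 to KI 5, against 32.0, 23.3, 21.8, 27.1 and 21.0 TPM in WT 1 to WT 5. The groups overlapped, and a KI effect of -0.27 ± 0.16 on the log2 scale (SE, edgeR, adjusted p = 0.222) did not pass, nor did it under any of 25 alternatives (adjusted p from 0.0509 to 0.853).

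Ordered by mean TPM, the 9 genes ran in KI skin as Crabp2 (306 ± 120), Aldh1a3 (29.0 ± 15.1), Aldh1a1 (22.6 ± 9.48), Cyp26b1 (19.9 ± 5.76), Crabp1 (17.8 ± 9.16), Aldh1a2 (6.69 ± 6.24), Rbp4 (5.29 ± 3.25), Dhrs9 (3.29 ± 2.45) and Stra6 (2.30 ± 1.41; SD, n = 5). Only Crabp2 stood clear of its neighbour in KI skin, and the ranges of all other neighbours overlapped. In WT skin the order was Crabp2 (77.5 ± 18.2), Aldh1a1 (47.3 ± 14.5), Cyp26b1 (25.0 ± 4.53), Crabp1 (18.4 ± 8.82), Rbp4 (14.8 ± 5.02), Aldh1a3 (6.01 ± 1.78), Aldh1a2 (2.79 ± 2.76), Dhrs9 (1.80 ± 2.35) and Stra6 (0.868 ± 0.279; SD, n = 5). There only Aldh1a1 and Cyp26b1 were neighbours without overlap. Aldh1a3 was sixth by mean in WT skin and second in KI skin.

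Genes of the wider pathway were listed in 6 groups, 72 genes in all, of which 62 passed the count filter. Of these 62, 16 rose, 7 fell and 39 did not pass, while 15.6% of all genes tested rose and 15.3% fell. Their median log2 fold change was -0.04. The lists, like the 9 genes, were drawn up with earlier results known.

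Rbp2 and Fabp5, which encode intracellular binding proteins for retinol and for fatty acids, rose. Of 10 tested genes of binding and uptake, 3 rose, 2 fell and 5 did not pass, while 15.6% of all genes tested rose and 15.3% fell. Rbp2, known from the intestine, averaged 123 ± 48.0 TPM in KI and 7.67 ± 3.68 TPM in WT skin (SD, n = 5 each). On the log2 scale its rise of 4.16 ± 0.43 (SE, edgeR, adjusted p = 0.000348) was the largest among the 62 genes, and Rbp2 kept its call under all 25 alternatives. Fabp5, the epidermal fatty acid binding protein that can also carry retinoic acid, averaged 1676 ± 392 TPM in KI and 604 ± 129 TPM in WT skin. The scavenger receptor genes Cd36 (log2 fold change -0.59) and Scarb1 (-0.38), whose products take up lipids, fell. In the same libraries 8 of 10 endothelial, 7 of 12 adipocyte and 8 of 8 Schwann cell markers were lower in KI. Of 10 macrophage and dendritic cell markers 5 were higher and 0 lower, at a level of 5.09 to 5.79 in KI and 4.42 to 5.08 in WT libraries. The part of any of these cell types was not tested. The endothelial level spanned 3.58 to 4.02 in KI and 4.30 to 4.62 in WT libraries, and the Schwann cell level 3.76 to 5.11 in KI and 5.35 to 6.72 in WT libraries. Cd36 lost its call with EAS42 alone (-0.29) and with the muscle (-0.50) or adipocyte level (-0.30) as a covariate, and adjusted p ran from 2.97e-05 to 0.343 over 25 alternatives.

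Among genes for storage as retinyl ester, Lrat, the enzyme that esterifies retinol, averaged 6.02 ± 3.25 TPM in KI and 0.486 ± 0.211 TPM in WT skin, a 13.3-fold rise (edgeR adjusted p = 0.00101). Dgat1, an acyltransferase that can also esterify retinol in mouse skin, averaged 71.5 ± 14.1 TPM in KI and 51.5 ± 4.21 TPM in WT skin (log2 fold change 0.68). Lipases that release fatty acids or retinol from esters fell, namely Pnpla2 (log2 fold change -0.76), Lpl (-0.71) and Lipe (-0.53). As many as 7 of 12 adipocyte markers, Lipe among them, were lower too, and their part was not tested. Both Pnpla2 and Lipe lost their calls with EAS42 alone (-0.30 and -0.27) and with the adipocyte (-0.42 and -0.12) or muscle level (-0.50 and -0.67) as a covariate. Lipe is itself part of the adipocyte level, so its loss with that level is partly built in. Over 25 alternatives adjusted p ran from 6.15e-05 to 0.359 for Pnpla2 and from 0.000759 to 0.696 for Lipe. The other 5 of the 10 genes tested did not pass. Over all genes tested, 30.9% were called.

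Of 18 tested genes for oxidation of retinol and reduction of retinaldehyde, 7 rose, none fell and 11 did not pass. Of all genes tested, 15.6% rose and 15.3% fell. Rdh10, the retinol dehydrogenase that mouse embryos need, averaged 11.8 ± 1.63 TPM in KI and 7.64 ± 1.52 TPM in WT skin (log2 fold change 0.72 ± 0.13, SE; edgeR adjusted p = 0.00332). Sdr16c6, an epidermal retinol dehydrogenase in mice, averaged 210 ± 57.0 TPM in KI and 100.4 ± 28.9 TPM in WT skin, and Rdh12, known as a retinaldehyde reductase of the retina, 81.0 ± 9.54 TPM in KI and 47.3 ± 7.47 TPM in WT skin. Rdh13 averaged 18.9 ± 0.941 TPM in KI and 14.5 ± 0.547 TPM in WT skin. Rdh1, Rdh16 and Sdr16c5 also rose. Rdh1 and Rdh16 belong to a cluster of similar copies. Their shared sequence was not measured, and their split of reads may be uncertain.

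Of 2 tested genes for breakdown of retinoic acid 1 fell, and of 13 receptors and partners 1 rose, while 15.3% of all genes tested fell and 15.6% rose. Cyp26a1 and Cyp26c1 lay below the filter, with 14 and 3 counts in all 5 KI libraries together and 16 and 4 in all 5 WT libraries together. The cytochrome gene Cyp2s1 averaged 6.64 ± 0.903 TPM in KI and 10.3 ± 1.93 TPM in WT skin and fell (log2 fold change -0.55 ± 0.15, SE; edgeR adjusted p = 0.0206). Cyp2s1 lost its call with EAS37 alone (-0.36), with the muscle (-0.70) or adipocyte level (-1.0) and without KI 4 (-0.48), where adjusted p ran from 0.00508 to 0.273 over 25 alternatives. Ugt1a1, which shares exons with its gene family, had a log2 fold change of 0.13 (edgeR adjusted p = 0.745). Rarg, the main retinoic acid receptor of epidermis, averaged 106 ± 4.65 TPM in KI and 124 ± 15.2 TPM in WT skin (edgeR adjusted p = 0.305). Its partner Rxra averaged 65.8 ± 7.15 TPM in KI and 83.0 ± 11.7 TPM in WT skin (log2 fold change -0.25, adjusted p = 0.0523). Rxra passed with DESeq2 (-0.25, adjusted p = 0.0227), within a range of 0.0196 to 0.832 over 25 alternatives. The log2 fold changes were -0.20 for Rara, -0.64 for Rarb and -0.77 for Rxrg, and none passed over all libraries. Rxrg stood at -1.99 in EAS37 and -0.42 in EAS42. It passed with the prefix as a block (-1.15), with the hair level as a covariate (-1.16) and with EAS37 alone (-1.97; edgeR adjusted p from 0.00713 to 0.815 over 25 alternatives). Rara passed with EAS37 alone (-0.51; edgeR adjusted p from 0.0356 to 0.933 over 25 alternatives). Ppard, the nuclear receptor that Fabp5 serves, was the 1 that rose, at 27.4 ± 2.48 TPM in KI and 18.97 ± 1.35 TPM in WT skin (log2 fold change 0.66).

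Of 12 tested genes known to be induced by retinoic acid in other cells, 3 were higher, 1 was lower and 8 did not pass. Of all genes tested, 15.6% were higher and 15.3% lower. The 12 genes had a median log2 fold change of -0.12. Rarres1 averaged 147 ± 35.4 TPM in KI and 67.8 ± 12.6 TPM in WT skin. The EGF receptor ligand genes Hbegf and Areg rose, with log2 fold changes of 1.80 ± 0.33 for Hbegf and 1.66 ± 0.49 for Areg (SE). Areg lost its call under 11 of 25 alternatives, among them without KI 1, KI 2, WT 1, WT 3, WT 4 or WT 5 (edgeR adjusted p from 0.00222 to 0.668 over the 25). Tgm2, a transglutaminase, fell to 27.0 ± 4.67 TPM in KI, against 53.2 ± 6.75 TPM in WT skin (log2 fold change -0.89). Rarb, whose promoter holds the repeat printed above, averaged 0.934 ± 0.788 TPM in KI and 1.40 ± 0.496 TPM in WT skin. Of the other named genes that rose, Dgat1 (0.42) lost its call with EAS37 alone and Rdh13 (0.29) with EAS42 alone. Both also lost it with the adipocyte level, and Rdh13 with the muscle level. Lrat, Fabp5 and Rdh12 lost theirs with the adipocyte level (edgeR adjusted p = 0.076, 0.0792 and 0.0617). Sdr16c6 and Rarres1 lost theirs under 1 of the 25 alternatives each, and Rdh10, Ppard and Hbegf under 2 each. As a covariate, the muscle level left 7 of the 62 genes past the test and the adipocyte level 4, beside 416 and 326 of all 17321 genes.

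**Figure D5:**
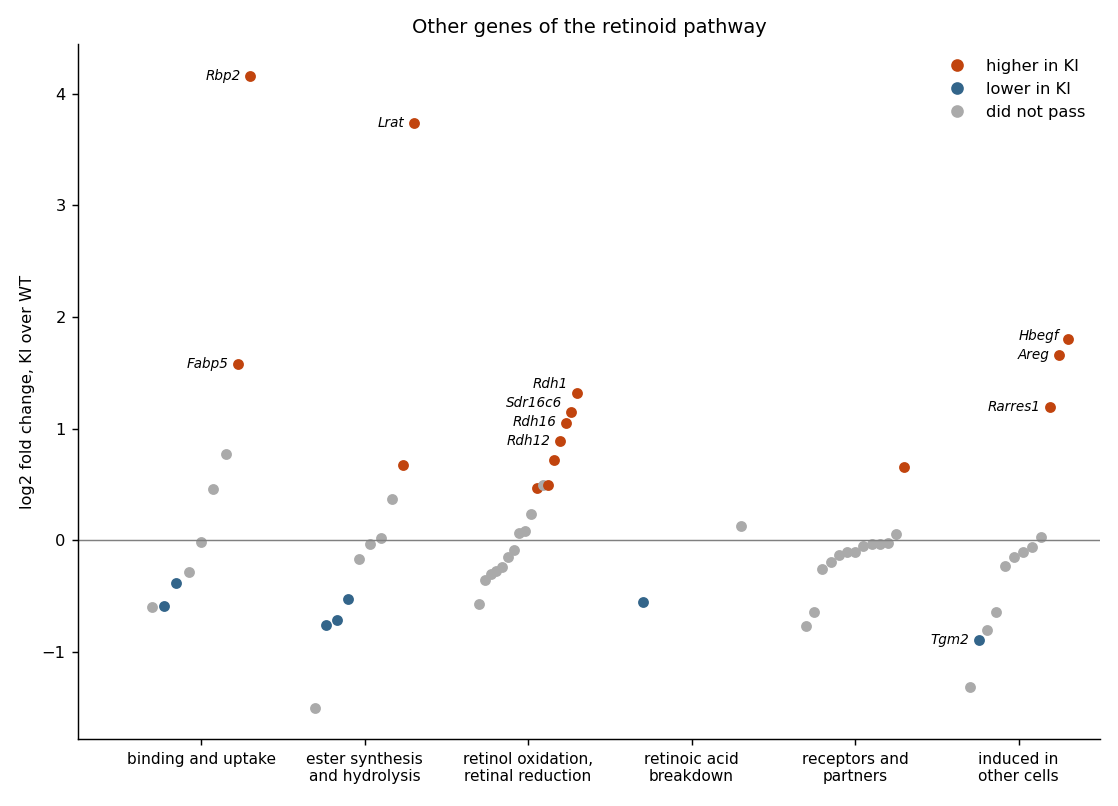
Log2 fold change, KI over WT, of tested genes of the 6 wider retinoid groups, red where higher in KI, blue where lower and grey where the test was not passed; genes past the test with a change above 0.85 in size are named. Rbp2 and Lrat stand highest, at 4.16 and 3.74, while 12 of the 13 receptors and partners are grey.

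Across libraries, after the mean of each genotype was subtracted, Crabp2 and Aldh1a3 varied together (Pearson's r 0.96 over 10 libraries, and 0.89 with the prefix mean removed too). The closest of 10813 genes with a mean of at least 10 CPM were Gnb1 (r 0.99) and Pla2g7 (0.98) for Crabp2 and Pard6g and Ormdl3 (both 0.97) for Aldh1a3. For Dhrs9 they were Bnc1 and Ppp2r1b (both 0.99), and for Aldh1a2 Slc45a3 and Ethe1 (both 0.98). Rbp4 lay closest to Retnla and Nfatc4 (both 0.96), and Aldh1a1 to Mn1 and Ube2d-ps (both 0.98). Crabp1 lay closest to Dpysl2 (0.99) and H2-Aa (0.98), Stra6 to Fmo5 (0.95) and Ncor1 (0.94), and Cyp26b1 to Mcm9 and Il22ra2 (both 0.93). These likenesses are the highest of many over 10 points that share library and prefix, and serve as a description.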

How the data were processed

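Skin RNA of 10 mice (5 KI, 5 WT), 1 library each, was sequenced with an Illumina stranded mRNA kit (per the labels' protocols, 250 ng of RNA each). The deposited tables have the columns of RSEM. Per the file headers they hold the authors' expected counts, TPM, FPKM and lengths, of which FPKM was left aside. The submitters' processing notes name STAR 2.5.2b, featureCounts, DESeq2 1.14.1 and GRCm38, with no role or order. No source used here gives the annotation release or strand setting.

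Expected counts, as deposited by the authors, were rounded. Genes were named from GENCODE M21 (55227 of 55487 matched), kept by filterByExpr (minimum count 10, total 15; 17321 genes, 0.127% of counts removed) and tested, two-sided, with edgeR 4.0.16 (TMM, robust quasi-likelihood, Benjamini-Hochberg over all genes tested, threshold 0.05) in R 4.3.3. The SE of a log2 fold change was derived as its size divided by the square root of the F statistic of its edgeR test. Levels are TPM as deposited by the authors. List levels are mean log2 CPM (prior count 2). Replicates were numbered in accession order and pair nothing. No 2 libraries of the same genotype agreed within sampling noise.

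Named were the 9 genes, the 4 of each wider list with the smallest p, Rara, Rarb, Rarg, Rxra, Hamp, and the 2 closest genes per member. Lpl, Scarb1, Rdh1, Rdh16, Sdr16c5, Aldh1a7, Cyp26a1, Cyp26c1, Ccdc33 and Gm16131 were named after their values were seen. 1 gene of the wider lists is counted in its list but not reported here. Members and lists were chosen with earlier results of these data known. Alternatives were 25 (other normalizations, filters, length offsets, DESeq2 1.42.0, limma 3.58.1 voom and log2(TPM + 1) or log2(TPM + 0.1), covariates, prefixes, libraries left out). The tests were tried on simulated counts.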

Additional observations from a re-analysis of the deposited data

Results flagged for a closer look

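Dhrs9 stood at 5.90 TPM in WT 2, far from the other 4 WT libraries (0.23 to 1.34 TPM). Among 66 groups of 5 libraries examined in this way (the 9 genes and 24 other retinoid genes, in KI and in WT), it was the 1 group with such a library, and chance gives about 1 in 20. The groups share libraries and are not independent, so that rate is a rough guide and the flag a description. KI 1 and KI 2 held 4.65 and 6.92 TPM of Dhrs9. WT 2 also had the highest hair level (8.196) and the highest activated keratinocyte level of the WT libraries (4.99).

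The KI effect on Pnpla2, a triglyceride lipase gene, differed between prefixes by 0.94 ± 0.15 on the log2 scale (EAS42 minus EAS37, SE; edgeR adjusted p = 0.0341). Its log2 fold change was -0.29 in EAS42 and -1.23 in EAS37, and KI lay below WT in each.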

How the results depend on the processing

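No paired analysis was possible because replicate numbers follow accession order and the numbers in titles are shared by no KI and WT mouse of a prefix. With the skeletal muscle level in the model, 416 genes, 1 of the 9 retinoid genes and 7 of the other 62 passed. With the adipocyte level these counts were 326, 1 and 4, and both levels differ between genotypes. EAS42 alone gave 2444 genes. The 9 genes gave 3 calls with no filter, 3 with EAS37 alone and 3 to 5 without any 1 library (3 without WT 1 or WT 5). Calls lost, with log2 fold changes, were those of Crabp2 with muscle (1.40) and adipocyte level (1.85), Aldh1a3 with muscle (1.31), adipocyte (2.16) and EAS42 alone (2.05), Rbp4 with no filter (-1.45), muscle (-1.04) and adipocyte level (-0.33), Aldh1a1 with no filter (-1.04), muscle (-0.13), adipocyte level (-1.09), EAS37 (-1.69) and EAS42 alone (-0.64), and Stra6 with limma-voom (1.36), log2(TPM + 1) (0.71), log2(TPM + 0.1) (1.09), prefix block (1.27), hair level (1.25) and EAS37 alone (0.11). Calls gained were Dhrs9 with prefix block (1.82), hair level (2.19) and EAS42 alone (2.70), Aldh1a2 with prefix block (2.03) and hair level (2.36), the Stra6 prefix difference with no filter (2.34), Rxrg with prefix block (-1.15), hair level (-1.16) and EAS37 alone (-1.97), Rara with EAS37 alone (-0.51), and Rxra with upper quartile factors (-0.26), a minimum count of 50 (-0.26), DESeq2 (-0.25), EAS37 alone (-0.39) and without WT 4 (-0.31). Signs turned for Dhrs9 with muscle (-0.36) and adipocyte level (-0.30), Aldh1a2 with adipocyte level (-0.51), Crabp1 with muscle (0.37) and adipocyte level (0.24), Rxrg (0.17) and Rarb (0.20) with muscle level, Rara with adipocyte level (0.13) and EAS42 alone (0.08), Rarg with EAS37 alone (0.0048), and Ugt1a1 on TPM (-0.01 with either pseudocount) and with EAS37 alone (-0.61). The cause was not tested. Without any 1 library the log2 fold change ran from -0.21 to 0.30 for Crabp1, -1.70 to -1.21 for Rbp4, -1.19 to -0.83 for Aldh1a1, 0.67 to 2.15 for Aldh1a2, 0.55 to 2.24 for Dhrs9, -0.40 to -0.17 for Cyp26b1, -0.13 to 0.30 for Ugt1a1, 1.89 to 2.28 for Crabp2, 2.14 to 2.57 for Aldh1a3 and 1.20 to 1.77 for Stra6, the last 3 passing each time. Other normalizations, length offsets, a minimum count of 50 and DESeq2 changed no call among the 9. Within a prefix, the model with an interaction and a fit of that prefix alone gave different calls for some genes. In EAS42 the edgeR adjusted p was 0.0679 against 0.00671 for Dhrs9, 0.0273 against 0.0674 for Aldh1a3 and 0.126 against 0.0357 for Rbp4. In EAS37 it was 0.0279 against 0.0894 for Aldh1a1.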

Other observations

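The Crabp2 to Crabp1 ratio of TPM was 83.4, 34.3, 9.97, 12.9 and 6.23 in KI 1 to KI 5, against 4.54, 14.6, 5.14, 2.02 and 2.97 in WT 1 to WT 5. The groups overlapped through WT 2, and libraries titled EAS37 were the higher ones in each genotype. Rbp2, which binds retinol, had a log2 fold change of 5.26 in EAS37 and 3.11 in EAS42, and the difference of -2.15 ± 0.43 (EAS42 minus EAS37, SE; edgeR adjusted p = 0.0603) did not pass.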
